A study of Homo sapiens with 6 samples.

Results

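Notch signalling genes were examined in SW403 cells with and without knockdown of IRS2, in 10 genes chosen by symbol. They are the target genes HEY1, HEY2, HES1 and HES4, the receptor genes NOTCH1, NOTCH2 and NOTCH3, and the ligand genes JAG1, JAG2 and DLL1. All 10 were found among the 26490 gene symbols of the count table, and all 10 passed the filter on low counts that left 13832 tested genes. SW403 is an established human colon adenocarcinoma line. The control group had 3 libraries of SW403 cells with normal IRS2 expression, labelled WT in the genotype field and NS in the descriptions. The knockdown group had 3 libraries of SW403 cells labelled IRS2_knockdown, whose descriptions carry the letters KO. All cultures were seeded for 24 h in DMEM with 10% fetal bovine serum, and no treatment was added. The means of lowering IRS2, and whether a group's 3 cultures trace back to independent lines, are not given in the sources used here. The p-values weigh the difference between the groups against the spread between cultures, and their reach beyond these cultures is unknown. The question was whether a fall of about 3-fold in HEY1 between the groups was shared by other Notch targets. HEY1 was singled out for its value in this comparison, so the values of the 10 genes in it, and the counts of them past a threshold, are given as a description and no p of theirs is printed.

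Notch receptors sit in the cell membrane and bind ligands of the Jagged and Delta families on neighbouring cells. Binding leads to cleavage of the receptor, and its freed intracellular part enters the nucleus, where it joins the DNA-binding protein RBPJ and coactivators of the Mastermind family to switch on genes of the HES and HEY families. These targets encode repressors of transcription, and in the intestine Notch activity through HES1 is known for keeping progenitor cells from taking the secretory fate.

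RBPJ is known to bind DNA at a core that reads GTGGGAA, and the regions before the RefSeq start of the target genes are shown because they hold it. RefSeq promoter windows of 300 bases, of which 250 lie before the start, were available for 8 of the 10 genes, the entries for HEY1 and DLL1 being missing. GTGGGAA was searched on both strands of these windows (the table's build is GRCh38.p14). It was found in 3 of the 8 windows, those of HES1, HES4 and HEY2, and in none of the windows of NOTCH1, NOTCH2, NOTCH3, JAG1 and JAG2. Of 34943 windows of this length in the table, 6.24% held it. The shorter core TGGGAA, which lies within every GTGGGAA, was found in the same 3 genes and in 24.0% of all windows. The matches are printed 5′ to 3′ in the direction in which they read GTGGGAA, with the match in capitals, at their place in GRCh37, the build named in the submitters' processing notes.

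HES4, minus strand of chr1:935537-935566: gctggggcgagtGTGGGAAagaatgcggag

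HES1, plus strand of chr3:193853840-193853869: ctgaaagttactGTGGGAAagaaagtttgg

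HEY2 near its start, plus strand of chr6:126070762-126070791: cagagttgcggcGTGGGAAagagccgctag

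HEY2 farther upstream, minus strand of chr6:126070554-126070583: tccagccgaggcGTGGGAAcgcggccgcgg

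The first base of the match lay 77 bases before the RefSeq start in HES4 and 85 bases before it in HES1. In HEY2 a match on the strand of the gene began 4 bases before the RefSeq start, and the farthest base of a match on the opposite strand lay 213 bases before it. The GENCODE gene starts used for the neighbours below differ for HEY2 (126068810) and HES4 (935552). Both HEY2 matches lie inside the GENCODE span of HEY2, and the HES4 match crosses the GENCODE start of HES4. HES1 held a further TGGGAA, whose first base lay 14 bases after that of the first. Both are in capitals in the 250 bases before the HES1 start, chr3:193853687-193853936 on the plus strand of GRCh37.

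HES1: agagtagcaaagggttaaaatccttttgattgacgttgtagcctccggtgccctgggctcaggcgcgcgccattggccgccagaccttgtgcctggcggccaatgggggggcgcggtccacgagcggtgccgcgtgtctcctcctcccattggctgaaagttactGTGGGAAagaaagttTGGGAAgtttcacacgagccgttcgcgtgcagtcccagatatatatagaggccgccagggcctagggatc

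A match to these letters is a description of the sequence and was not tested as a binding site. The HES1, HES4 and HEY2 windows each held GTGGGAA. The RNA of HES1 and HES4 was lower in knockdown, while the groups overlapped for HEY2. Whether the matches bear on these levels was not tested.

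The targeted gene was measured first. IRS2, which encodes an adaptor of the insulin and IGF1 receptors, was at 32.4, 34.8 and 32.2 CPM (counts scaled to the library total) in control and 13.0, 12.3 and 11.9 CPM in knockdown. Its control mean was 33.2 ± 1.42 CPM and its knockdown mean 12.4 ± 0.535 CPM (mean ± SD of 3 libraries each), with an adjusted p of 3.12e-11 in edgeR. Library totals ran from 11816973 to 12585013 counts in control and from 14329348 to 18114656 in knockdown, so every knockdown library was the deeper. No pair of replicates agreed within counting error, with chi-square per degree of freedom from 1.41 to 2.78 over genes, so all 6 were kept as separate samples. Of the 10 colon epithelial markers, KRT8 and KRT18 were above 1000 CPM in each group mean, and EPCAM and CDX2 were expressed, while CDX1 and CEACAM5 had no read and CDH1, the E-cadherin gene, had at most 5 counts in a library. Among markers of other cells, PECAM1 and CDH5 of endothelium had no read and VWF had 4 to 11 counts per library, with the summed endothelial list at 0.338 to 0.876 CPM in control and 0.558 to 0.662 CPM in knockdown. The summed immune list was at 2.07 to 3.64 CPM in control and 2.48 to 3.35 CPM in knockdown. The summed fibroblast list was at 8.97 to 27.6 CPM in control and 5.80 to 7.34 CPM in knockdown. Its highest value came from control replicate 1, where COL1A1 had 193 counts, against 72 and 67 in the other controls. Without that library the log2 fold change of HEY1 was -1.61.

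HEY1 was lower in every knockdown library than in any control library. HEY1 encodes a basic helix-loop-helix repressor of the Hairy-related family. It was at 44.7, 42.0 and 41.0 CPM in control replicates 1 to 3 and at 12.4, 14.1 and 13.5 CPM in knockdown replicates 1 to 3. The groups did not overlap, and the widest gap between libraries of 1 group was far smaller than that between the groups. The control mean was 42.6 ± 1.92 CPM and the knockdown mean 13.3 ± 0.858 CPM (mean ± SD of 3 libraries each). In the model fitted across all genes, the log2 fold change of knockdown over control was -1.64 ± 0.07 (SE), a 3.12-fold lower level. These are the values for which HEY1 was chosen. In bulk RNA, fewer cells with HEY1 RNA and less of it per cell cannot be told apart.

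HES4 and HES1 were also lower, by less than HEY1. HES4, another Hairy-related repressor, was at 13.7, 12.7 and 16.0 CPM in control and 7.68, 10.0 and 7.73 CPM in knockdown. The HES4 groups did not overlap, and the nearest libraries were knockdown replicate 2 and control replicate 2. Its log2 fold change was -0.70 ± 0.12 (SE), a 1.63-fold lower level. HES1, the HES family repressor most tied to Notch in the intestine, was at 34.3, 33.2 and 32.9 CPM in control and 26.2, 26.9 and 25.8 CPM in knockdown. The HES1 values were tight in each group and did not overlap. Its log2 fold change was -0.32 ± 0.06 (SE), a 19.9% lower level.

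HEY2 did not follow HEY1. HEY2 encodes a close relative of HEY1 and is best known in the heart and blood vessels. It was at 10.0, 9.79 and 10.5 CPM in control and 11.0, 10.2 and 10.9 CPM in knockdown. The groups overlapped, and the log2 fold change was 0.12 ± 0.10 (SE). So 2 of the 3 other target genes were lower, as HEY1 was, and none of the 3 was lower by as much. Among all 13832 tested genes, 19.2% were lower with an edgeR adjusted p under 0.05, and nothing is read from this count.

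**Figure D1:**
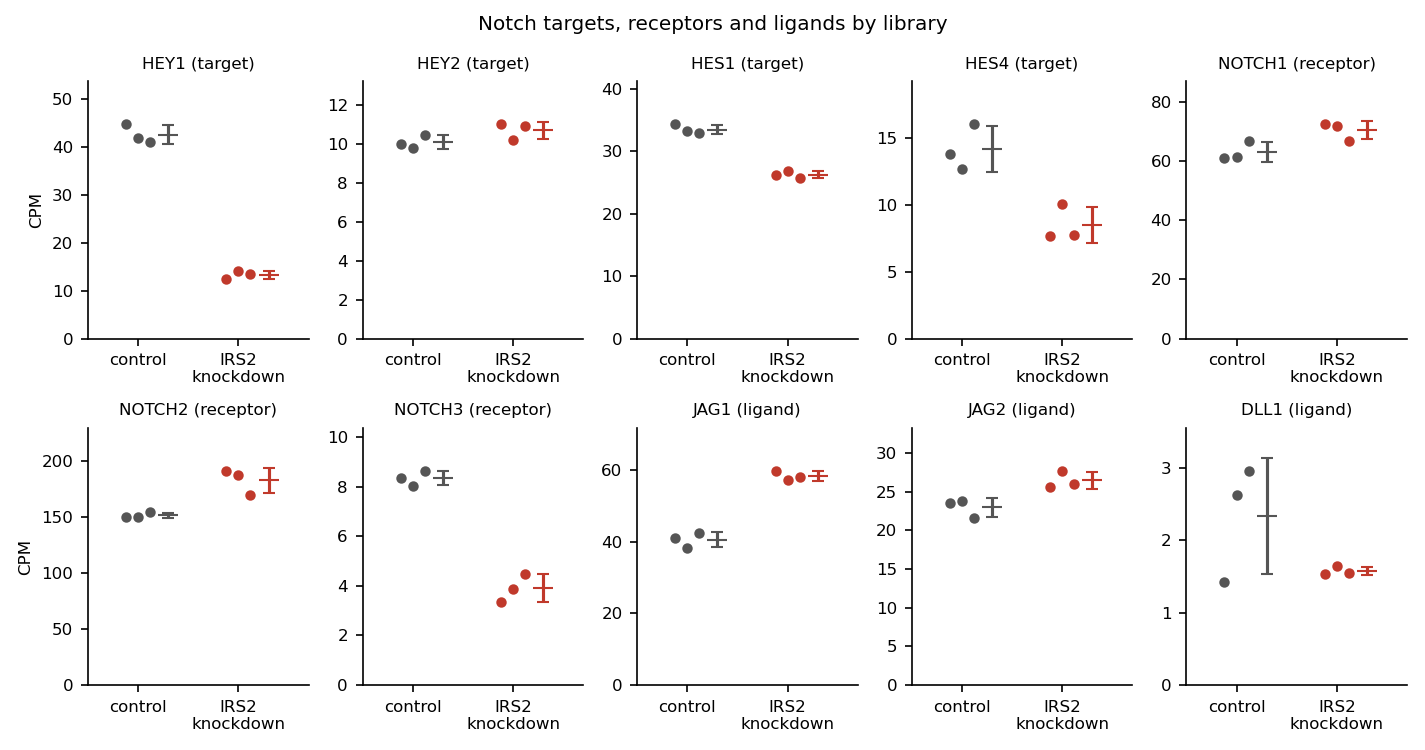
CPM of the 10 Notch genes in each library (y axis, starting at 0 in each panel) for the 3 control and 3 IRS2 knockdown libraries. Points are libraries and bars are the mean ± SD. HEY1 has means of 42.6 and 13.3 CPM, HES1, HES4 and NOTCH3 are lower by less, and NOTCH2 and JAG1 are higher in knockdown.

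Ratios of counts within a library do not depend on how libraries are scaled. HEY1 had 1.30, 1.26 and 1.25 counts per HES1 count in control and 0.475, 0.525 and 0.522 in knockdown. These are ratios of counts, not of levels per length, and they are read between libraries only: the HEY1 to HES1 ratio was lower in each knockdown library than in any control library. Per HEY2 count, HEY1 had 4.47, 4.28 and 3.91 counts in control and 1.13, 1.39 and 1.23 in knockdown. The HEY1 to JAG1 ratio went from a mean of 1.05 ± 0.0731 to 0.229 ± 0.0198 (mean ± SD of 3 libraries each). In each of these ratios the 2 groups of libraries stood apart. Each has HEY1 as its numerator, and HEY1 was chosen for its fall in these libraries, so the separation adds no separate support.

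The receptors moved in unlike directions. NOTCH1 and NOTCH2 encode the receptors usually found in intestinal crypts. NOTCH1 was at 61.0, 61.4 and 66.9 CPM in control and 72.6, 72.0 and 67.1 CPM in knockdown. Its groups nearly touched, at control replicate 3 and knockdown replicate 3, and its log2 fold change was 0.19 ± 0.05 (SE). NOTCH2 was at 151, 150.2 and 154 CPM in control and 191, 187 and 169.7 CPM in knockdown. Every knockdown library was higher, knockdown replicate 3 by the least, and the log2 fold change of NOTCH2 was 0.30 ± 0.04 (SE).

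Among the receptor genes of the 10, NOTCH3 was the one that was lower. NOTCH4, outside the 10 and given further below, was lower too. NOTCH3 encodes a receptor best known in the smooth muscle of blood vessels. It was at 8.34, 8.04 and 8.63 CPM in control and 3.35, 3.87 and 4.47 CPM in knockdown. The groups did not overlap. Its log2 fold change was -1.05 ± 0.14 (SE), a 2.08-fold lower level. Per NOTCH2 count, NOTCH3 had 0.0554, 0.0535 and 0.0559 counts in control and 0.0175, 0.0206 and 0.0264 in knockdown.

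NOTCH2 has 4 near-identical partial copies among the symbols of the table, NOTCH2NLA, NOTCH2NLB, NOTCH2NLC and NOTCH2NLR. NOTCH2NLA and NOTCH2NLC had the same counts in every library, 93, 73 and 97 in control and 100, 144 and 116 in knockdown. How reads shared between them and NOTCH2 were counted is not given in the sources used here. NOTCH2 itself had from 1824 to 3198 counts per library, so its value is uncertain by whatever share of reads the copies took or gave.

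The 2 Jagged ligands were higher in knockdown. JAG1 encodes the Jagged ligand most widely expressed in epithelia. It was at 41.0, 38.2 and 42.4 CPM in control and 59.8, 57.2 and 58.1 CPM in knockdown. The groups did not overlap, and the log2 fold change was 0.56 ± 0.05 (SE), a 1.47-fold higher level. JAG2, its relative, was at 23.6, 23.8 and 21.6 CPM in control and 25.7, 27.7 and 26.1 CPM in knockdown. The groups did not overlap, and the log2 fold change was 0.23 ± 0.07 (SE).

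The Delta ligand gene DLL1 had few counts. DLL1 marks early secretory cells in the intestine. It had 18, 33 and 35 counts in control and 22, 28 and 28 counts in knockdown. That is 1.43, 2.63 and 2.96 CPM against 1.54, 1.64 and 1.55 CPM. The groups overlapped because of control replicate 1, and the log2 fold change was -0.53 ± 0.26 (SE). Without control replicate 1 it was -0.79 and DLL1 passed the threshold, which it did not with all libraries.

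**Figure D2:**
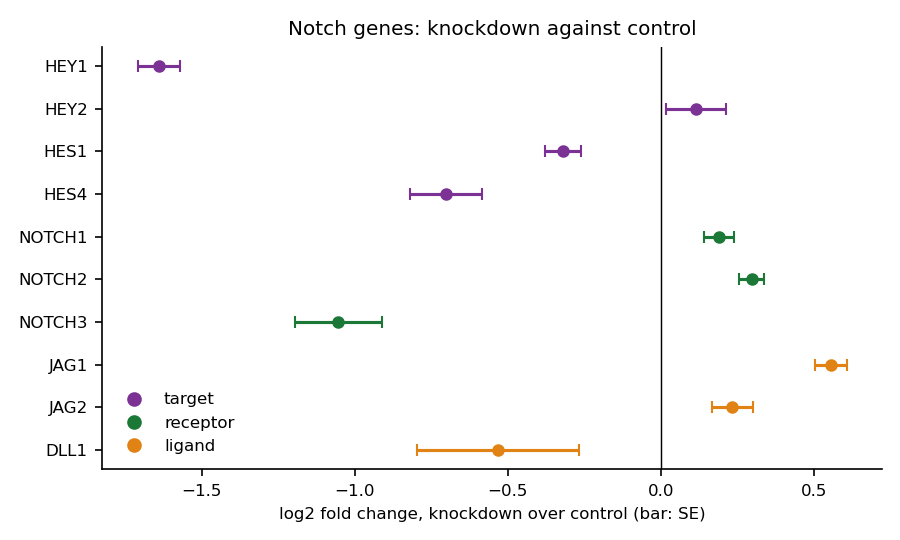
Log2 fold change of knockdown over control (x axis) for each of the 10 genes, coloured by role, with bars of ± 1 SE from edgeR's quasi-likelihood fit. HEY1 lies at -1.64 and NOTCH3 at -1.05, while JAG1 lies at 0.56.

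In edgeR's quasi-likelihood test with Benjamini-Hochberg adjustment over all tested genes, 8 of the 10 genes had an adjusted p under 0.05. The same was true of 38.5% of all 13832 tested genes. Of the 10, 4 were higher (NOTCH1, NOTCH2, JAG1 and JAG2), against 19.3% of all tested genes, and 4 were lower (HEY1, HES1, HES4 and NOTCH3), against 19.2%. HEY1 and NOTCH3 were past the threshold and at least 2-fold lower, which 4.32% of all tested genes were. The groups did not overlap for these 8 genes, and they did not overlap for 48.4% of all tested genes. Nothing is read from these counts, since the genes were chosen with this comparison known. The median log2 fold change was -0.51 over the 4 targets, 0.19 over the 3 receptors and 0.23 over the 3 ligands, and -0.004 over all tested genes. JAG2 was no longer past the threshold without control replicate 3, without knockdown replicate 2 or with DESeq2's Wald test, where its log2 fold change ranged from 0.19 to 0.24.

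**Figure D3:**
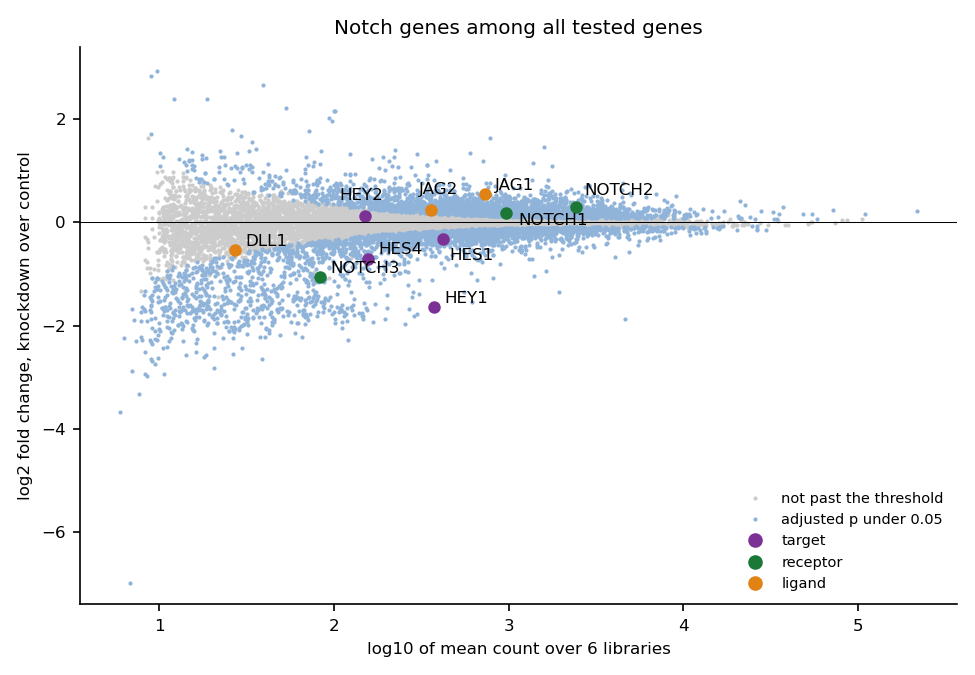
Log2 fold change of knockdown over control (y axis) against the log10 of the mean count over 6 libraries (x axis) for the 13832 tested genes, with the 10 Notch genes labelled and coloured by role. Blue points had an adjusted p under 0.05. HEY1, at -1.64, lies below most genes of its mean count, and the other Notch genes lie nearer to 0.

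Levels can be set side by side between genes only per length. In CPM per kb of the canonical GENCODE transcript, the control order was HES1 at 21.3 ± 0.473, HEY1 at 19.4 ± 0.876, HES4 at 16.0 ± 1.92 and NOTCH2 at 13.3 ± 0.199 (mean ± SD of 3 libraries each). After them came JAG1 at 6.82 ± 0.359 and NOTCH1 at 6.60 ± 0.347, whose libraries overlapped. JAG2 at 3.98 ± 0.213 and HEY2 at 3.85 ± 0.137 overlapped too. NOTCH3 at 0.961 ± 0.0341 and DLL1 at 0.619 ± 0.213 CPM per kb were the lowest.

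In knockdown the per-length level of HEY1 moved from second to sixth of the 10. HES1 at 16.7 ± 0.360 and NOTCH2 at 16.0 ± 1.01 CPM per kb overlapped at the top (mean ± SD of 3 libraries each). JAG1 at 9.83 ± 0.223 and HES4 at 9.58 ± 1.51 overlapped as well. NOTCH1 followed at 7.37 ± 0.315, then HEY1 at 6.07 ± 0.390, JAG2 at 4.59 ± 0.188 and HEY2 at 4.08 ± 0.173. NOTCH3 at 0.449 ± 0.0647 and DLL1 at 0.416 ± 0.0154 CPM per kb overlapped at the bottom.

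**Figure D4:**
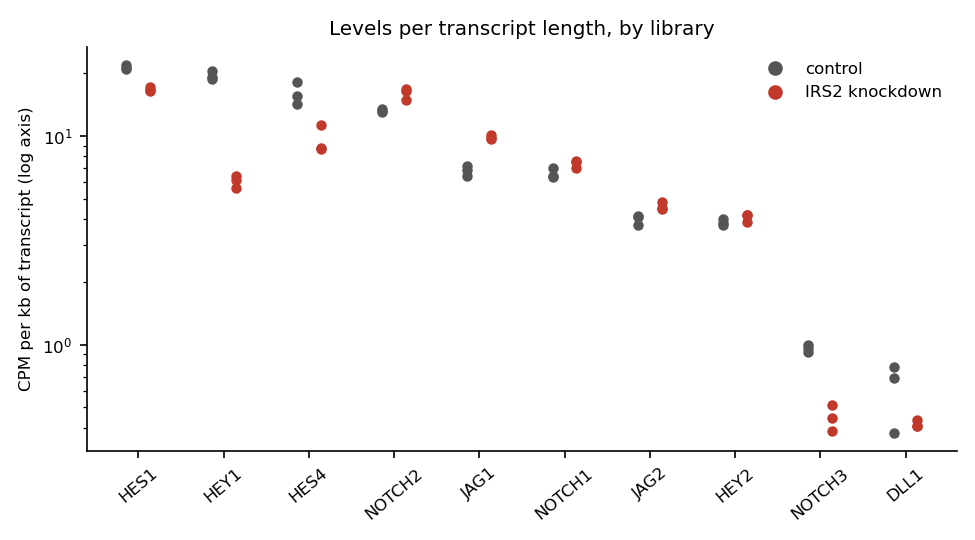
CPM per kb of transcript (y axis, log scale) of the 10 genes in each library, ordered by their control mean. Grey points are control and red points knockdown libraries. HEY1 stands beside HES1 in control, at 19.4 against 21.3 CPM per kb, and below NOTCH1 in knockdown.

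The genes lie apart in the genome. In GRCh37 with the GENCODE version 44 annotation lifted to it, HEY1 spans 80674606 to 80680092 on chromosome 8 and has 5 exons in its canonical transcript. NOTCH3 spans 15269849 to 15311806 on chromosome 19 with 33 exons, and JAG1 spans 10618332 to 10654647 on chromosome 20 with 26 exons. HEY2, NOTCH1, NOTCH2, JAG1 and DLL1 each overlap an antisense gene in the annotation, which for DLL1 is the coding gene FAM120B, and NOTCH1, JAG2 and DLL1 overlap a non-coding gene on their own strand, which for NOTCH1 is the microRNA gene MIR4673. The library kit named in the labels is not described there as keeping strand, and the strand setting of the counting is not given in the sources used here. The overlaps are of whole gene spans, introns included, and shared exons were not looked for. Where exons are shared, reads from such partners cannot be told apart from those of these genes.

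Tested genes with a start within 100 kb of that of a member were listed for 6 of the 10 genes, 16 neighbours in all, of which 6 passed the threshold, a share near the 38.5% of all tested genes. HEY1 had no such neighbour. HES4 had 8 of them, 4 past the threshold. SAMD11, 76.2 kb away, fell with a log2 fold change of -2.05 ± 0.15 (SE, edgeR adjusted p 2.47e-09), and LINC02593, 79.2 kb away, fell with -1.96 ± 0.18 (SE, edgeR adjusted p 8.63e-08). AGRN, 19.9 kb from HES4, rose with 0.30 ± 0.03 (SE, edgeR adjusted p 2.58e-07), and ISG15, the closest at 0.966 kb, had 0.03 ± 0.07 (SE, edgeR adjusted p 0.806). The other called neighbour of HES4, NOC2L, lay at the threshold (-0.08 ± 0.03 SE, edgeR adjusted p 0.04999) and lost it in 10 of the 17 alternative fits, 5 of them among the 6 that left out 1 library. NCOA7, the neighbour of HEY2, rose with 0.20 ± 0.07 (SE, edgeR adjusted p 0.0233) and lost the threshold in 7 of 17 fits, among them those without control replicate 1 or 2 or knockdown replicate 1 or 2. Near NOTCH3, SYDE1 fell with -0.62 ± 0.05 (SE, edgeR adjusted p 2.28e-08), while ILVBL was at 0.00 ± 0.06 (SE).

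Other genes of the pathway were taken from 6 hand-written lists, grouped by role. Of their 75 genes, 62 were tested and 28 passed the threshold in edgeR's quasi-likelihood test, 18 higher and 10 lower. That is 45.2% of those tested, beside 38.5% of all tested genes, of which 19.3% were higher and 19.2% lower. The 6 lists were chosen with earlier results of these data known, so nothing is read from their counts. The median log2 fold change over the 62 genes was 0.07, beside -0.004 over all tested genes.

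The rest of the HES and HEY family was read next, in a list that also held the related genes BHLHE40 and BHLHE41. Of 9 such genes, 6 were tested and 1 passed, 16.7% of those tested beside 38.5% of all tested genes. None of the tested genes named HES or HEY in this list passed. The 1 that passed was BHLHE41, a related repressor known from circadian rhythm. Its level rose from 7.65 ± 0.814 to 11.8 ± 0.382 CPM (mean ± SD of 3 libraries each), with a log2 fold change of 0.66 ± 0.11 (SE, edgeR adjusted p 6.68e-05). HEYL, the remaining HEY gene, picked with its values in view, was at 3.53 ± 0.519 and 3.25 ± 0.288 CPM (mean ± SD of 3 libraries each), with an adjusted p of 0.740 in edgeR. HES5, a target best known in the nervous system and also picked with its values in view, was below the filter. It had 7, 6 and 8 counts in control and 1, 1 and 2 in knockdown, although the knockdown libraries were deeper. Its counts did not overlap between the groups, and in the edgeR fit without the filter on low counts its log2 fold change was -2.65 ± 0.76 (SE, edgeR adjusted p 0.0028).

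Known targets outside the family were also read. Of 9, 6 were tested, 2 rose and 1 fell. So 3 of the 6 passed the threshold, beside 38.5% of all tested genes, of which 19.3% were higher and 19.2% lower. NRARP, a feedback inhibitor among the most direct targets of Notch, was picked with its values in view. It was at 51.5, 46.7 and 47.7 CPM in control and 52.6, 46.9 and 47.7 CPM in knockdown, with a log2 fold change of 0.04 ± 0.06 (SE, edgeR adjusted p 0.613). MYC, the growth regulator, rose from 310 ± 4.16 to 365 ± 8.57 CPM (mean ± SD of 3 libraries each), a log2 fold change of 0.27 ± 0.03 (SE, edgeR adjusted p 1.84e-06). CCND1, the cyclin D1 gene, had a log2 fold change of 0.51 ± 0.03 (SE, edgeR adjusted p 7.16e-11), and it and MYC are also targets of Wnt signalling. GATA3, a transcription factor that Notch induces in T cells, fell from 8.48 ± 0.605 to 3.11 ± 0.123 CPM (mean ± SD of 3 libraries each), a log2 fold change of -1.41 ± 0.14 (SE, edgeR adjusted p 2.23e-07). SOX9, a progenitor factor of the crypt, had 0.07 ± 0.03 (SE, edgeR adjusted p 0.0853), and it passed without knockdown replicate 3 (edgeR adjusted p 0.0382).

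Of the other ligands and the receptor NOTCH4, 3 of 6 genes were tested and 1 passed (33.3%, beside 38.5% of all tested genes). NOTCH4, known from endothelium, fell from 4.72 ± 0.917 to 2.91 ± 0.0865 CPM (mean ± SD of 3 libraries each), a log2 fold change of -0.67 ± 0.18 (SE, edgeR adjusted p 0.00682). Without control replicate 1 its edgeR adjusted p was 0.0548. No count was found for DLK1 in any library.

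Of 15 genes that process or sugar-modify the receptors, 14 were tested, 4 rose and 2 fell, with a median log2 fold change of 0.10. The share past the threshold was 42.9% of those tested, beside 38.5% of all tested genes. POFUT1, which adds fucose to the receptors, rose with 0.34 ± 0.03 (SE, edgeR adjusted p 2.58e-07), and ADAM17, a protease that cuts them at the cell surface, rose with 0.31 ± 0.05 (SE, edgeR adjusted p 5.90e-05). ADAM10, of the same list and picked with its values in view, had 0.10 ± 0.04 (SE, edgeR adjusted p 0.0628), and its groups overlapped. PSEN2 and APH1A encode parts of gamma-secretase, which makes the final cut. PSEN2 fell with -0.39 ± 0.07 (SE, edgeR adjusted p 0.000332) and APH1A with -0.17 ± 0.04 (SE, edgeR adjusted p 0.00252).

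Among trafficking and ubiquitin ligase genes, 10 of 12 were tested, 6 rose and 1 fell, with a median log2 fold change of 0.19. The share past the threshold was 70.0% of those tested, beside 38.5% of all tested genes. NEURL1B and MIB1 encode ubiquitin ligases that act on the ligands. NEURL1B rose with 0.52 ± 0.08 (SE, edgeR adjusted p 2.90e-05) and MIB1 with 0.31 ± 0.05 (SE, edgeR adjusted p 7.67e-05). NUMB, an inhibitor of Notch, rose with 0.24 ± 0.05 (SE, edgeR adjusted p 0.000752), and DTX3L, a ubiquitin ligase of the Deltex family, with 0.50 ± 0.08 (SE, edgeR adjusted p 3.79e-05). MIB2, picked with its values in view, was the 1 lower gene (-0.18 ± 0.07 SE, edgeR adjusted p 0.0403), and it lost the threshold in 8 of 17 alternative fits, among them those without control replicate 1 or 2 or knockdown replicate 1 or 2.

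Of the nuclear complex and its corepressors, 23 of 24 genes were tested, 5 rose and 5 fell. The share past the threshold was 43.5% of those tested, beside 38.5% of all tested genes. RBPJ, picked with its values in view, was at 81.4, 86.4 and 88.3 CPM in control and 82.6, 79.4 and 77.1 CPM in knockdown, and its log2 fold change was -0.07 ± 0.04 (SE, edgeR adjusted p 0.222). TLE genes encode Groucho corepressors that HES proteins recruit. TLE1 fell from 10.4 ± 0.627 to 3.72 ± 0.282 CPM (mean ± SD of 3 libraries each), a log2 fold change of -1.45 ± 0.13 (SE, edgeR adjusted p 5.74e-08). TLE5, a short relative, fell with -0.55 ± 0.04 (SE, edgeR adjusted p 1.27e-08), while TLE3 rose with 0.26 ± 0.03 (SE, edgeR adjusted p 2.63e-06). HDAC1, a histone deacetylase of these complexes, fell with -0.32 ± 0.03 (SE, edgeR adjusted p 2.97e-07).

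HEY1 is also known as a target of BMP signalling, so a list of 7 BMP response genes was read beside it. Of these 7 genes, 5 fell and 1 rose, with a median log2 fold change of -1.22, beside 19.2% lower and 19.3% higher among all tested genes. This list too was chosen with earlier results of these data known, so nothing is read from its count. ID3, an inhibitor of helix-loop-helix factors, was at 16.7, 17.0 and 17.6 CPM in control and 4.54, 4.69 and 4.91 CPM in knockdown (log2 fold change -1.82 ± 0.10 SE, edgeR adjusted p 1.02e-10). ID4 fell with -1.75 ± 0.11 (SE, edgeR adjusted p 6.16e-10), and the inhibitory SMAD gene SMAD6 with -1.22 ± 0.08 (SE, edgeR adjusted p 8.80e-10). SMAD9, a receptor-activated SMAD, fell with -1.35 ± 0.17 (SE, edgeR adjusted p 5.02e-06). ID1, picked with its values in view, was at 8.18 ± 1.15 and 6.53 ± 0.767 CPM (mean ± SD of 3 libraries each), with an adjusted p of 0.106 in edgeR, and without knockdown replicate 3 it passed (edgeR adjusted p 0.0404). SMAD7, a further inhibitory SMAD gene, fell with -0.15 ± 0.06 (SE, edgeR adjusted p 0.0481), and it lost the threshold in 11 of 17 alternative fits, among them every fit that left out 1 library except the one without knockdown replicate 3. ID2, the 1 gene that rose, had 0.12 ± 0.04 (SE, edgeR adjusted p 0.0146). Whether these changes are linked to that of HEY1 was not tested.

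**Figure D5:**
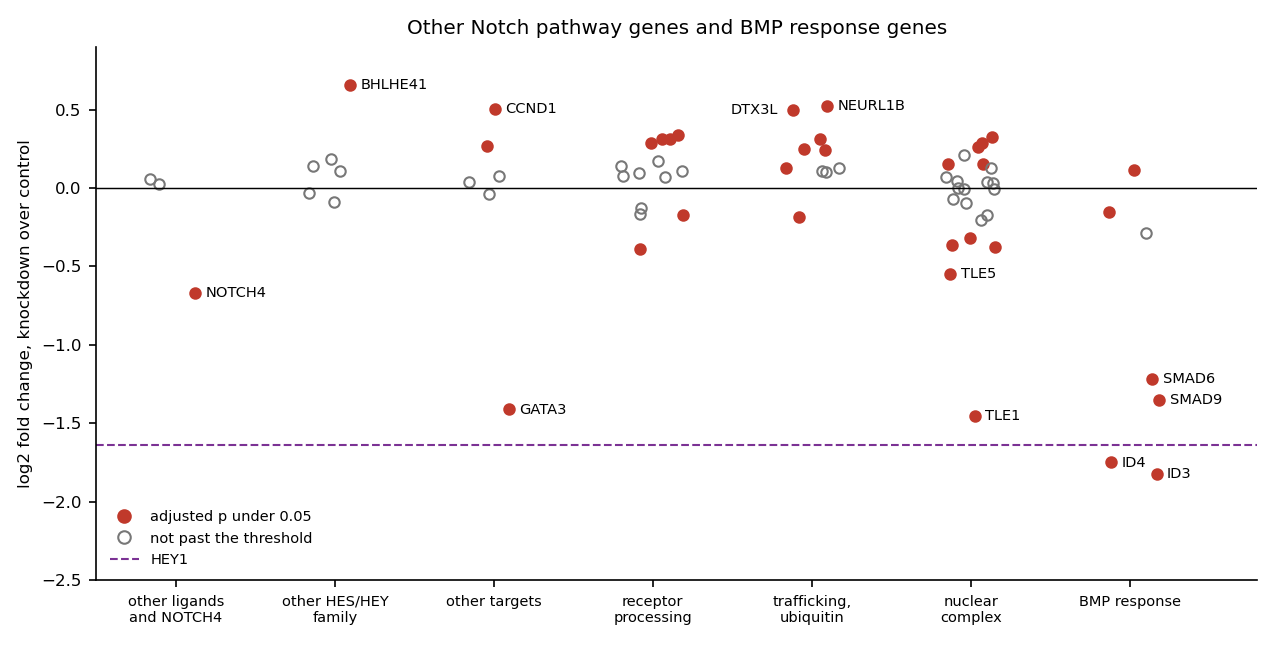
Log2 fold change of knockdown over control (y axis) for tested genes of the 6 further Notch lists and of the BMP response list. Filled red points passed the threshold, open points did not, points are spread sideways for visibility, and the dashed line is HEY1. ID3 and ID4 lie below the HEY1 line, GATA3 and TLE1 come closest to it among the Notch lists, and most other points lie within 0.7 of 0.

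By likeness over the 6 libraries, the genes outside the 10 whose log2 CPM correlated best with HEY1 were FAM32A (Pearson r 0.9996), SNX17 (0.9996), CKB (0.9993), GLDC (0.9992) and RCC1L (0.9985). These r values describe 6 points that fall into the same 2 groups for every gene, and 842 of the 10441 genes compared had an r over 0.95. The log2 fold changes were -0.48 for FAM32A, -1.04 for SNX17, -1.36 for CKB, -1.72 for GLDC and -0.63 for RCC1L.

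Markers of the intestinal lineages that Notch is known to divide were nearly silent. Of 18 secretory genes, 9 had no read in any library and 1 was tested, GFI1, a transcriptional repressor that acts in secretory cells, which fell with -0.66 ± 0.18 (SE, edgeR adjusted p 0.00703). ATOH1, the factor that HES1 represses, had at most 2 counts in a library. Of 12 absorptive genes, 6 had no read and 1 was tested, CA2, a carbonic anhydrase, which fell with -1.20 ± 0.16 (SE, edgeR adjusted p 5.49e-06). INSM1, a factor of enteroendocrine cells, was picked with its values in view and was below the filter. It had 8, 16 and 3 counts in control and 2, 2 and 3 in knockdown, so replicate 3 of each group had the same count. In the edgeR fit without that filter its log2 fold change was -2.26 ± 0.62 (SE, edgeR adjusted p 0.0017). The other untested genes of both lists had at most 13 counts in a library.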

How the data were processed

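RNA-seq counts of 6 SW403 libraries, 3 control and 3 IRS2 knockdown, were grouped by sample title. The authors deposited whole-number counts per gene symbol, and a second table whose values are a normalized signal, the deposited counts divided by 1 constant per library (0.847 to 1.25). STAR 2.6.1a, Salmon, DESeq2 and hg19 are named in the submitters' processing notes, with no role given. Annotation and strand setting are not given in the sources used here. All columns matched the sample descriptions.

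The 10 members and all gene lists were chosen with earlier results of these data known. Counts were tested with edgeR 4.0.16 in R 4.3.3 (TMM factors, filterByExpr, quasi-likelihood F-test, group as the only term), with Benjamini-Hochberg adjustment over all tested genes and a threshold of 0.05. SE was derived from the log2 fold change and the F statistic (its size over the root of F). CPM uses the library total. Levels per kb use GENCODE canonical transcript lengths. With 3 libraries against 3, an exact permutation test cannot give a two-sided p below 0.1. Named genes were the members, IRS2, up to 4 genes per list past the threshold with the smallest p, genes averaging 1000 counts or more in 3 lists (other ligands, other HES and HEY genes, other targets), the 5 genes most like HEY1 (Pearson r of log2 of CPM plus 0.1) and neighbours within 100 kb. Alternatives were 3 other scalings, 2 other filters, DESeq2 1.42.0, limma 3.58.1 (voom, and log2 of the deposited values plus 1), a length and GC correction, a threshold of 0.01, the replicate number as a block and leaving out each library.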

Additional observations from a re-analysis of the deposited data

How the results depend on the processing

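HEY1 had a log2 fold change of -1.68 to -1.59 over the 17 alternative fits, both ends coming from the 6 fits that each left out 1 library. The number of the 10 members past the threshold was 8 with all libraries, 7 to 9 over the alternatives, and 7 at an adjusted p of 0.01. Of the 75 other pathway genes, 22 (limma on the deposited normalized values) to 32 (no low-count filter) passed. The replicate numbers are shared by the groups, but after group means were removed, libraries with the same number correlated at 0.045, -0.011 and -0.098, so the numbers did not pair them. With the replicate number as a block, HEY1 had -1.64, 8 members and 26 other pathway genes passed, and 4862 genes did in all, against 5329 without it. The length and GC correction gave 8 members, with or without the block. Of 1015 values for the 60 other genes named by rule, 962 stayed on the same side of the threshold with the same sign, 31 lost the threshold, 8 gained it and 14 changed sign. The 14 were values near 0 of 3 neighbours, none past the threshold in any fit. ISG15 had -0.005 with library size alone and -0.003 to 0.067 when 1 library was left out, and PERM1 had -0.095 to 0.799 then. ILVBL had -0.021 with upper-quartile factors, -0.031 with library size alone, -0.013 with a mean of at least 50 counts, -0.001 with the replicate block, -0.022 with the length and GC correction, -0.025 with that correction and the block, and -0.046 to 0.048 when 1 library was left out. Without control replicate 1, COL3A1 had an edgeR adjusted p of 0.171 and CDX2 of 0.0667. DLL1, HES5 and the lineage markers are limited by low counts.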
